A study of Homo sapiens with 30 samples.

Results

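Small structured RNAs made by RNA polymerase III were followed by their gene rows in RNA libraries from HEK293FT, a line of human embryonic kidney cells. The rows were named by symbol: RPPH1, RMRP, RN7SL1, RN7SL2, RN7SL3, VTRNA1-1, VTRNA1-2, VTRNA1-3, RNY1 and RNY3. Of these 10 genes, 6 had a row among the 27630 rows of the count tables, and RN7SL1, RN7SL2, RNY1 and RNY3 were not analysed here. The set was selected on measured values of these libraries, the fold changes between groups, in which RPPH1 stood near the end of the ranking. Fold changes and calls of the members are therefore descriptions and support nothing by themselves.

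The 8 libraries fell into 4 groups of 2 libraries: a nuclear fraction, a cytosolic fraction, a native lamina preparation and a lamina preparation fixed with paraformaldehyde (PFA). All came from asynchronous cells that had been transfected with APEX2, a peroxidase that labels molecules near it, joined to lamin B1, a protein of the layer beneath the inner nuclear membrane. The labels state ribosomal RNA depletion, and none of the 8 libraries is labelled as untransfected. The libraries of both lamina groups are labelled APEX NL RIP, a pull-down of RNA. None of the 8 is labelled as the input of a pull-down or as a pull-down control. Values given at the lamina are those of these pull-down libraries, and where an RNA lay in the cell was not tested. The labels do not say whether replicates were separate cultures, so the spread between replicates may be technical.

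RNA polymerase III makes short non-coding RNAs with defined ends and strong folds. RPPH1 is the RNA of ribonuclease P, which trims the 5′ ends of transfer RNA precursors, and RMRP is the RNA of the related ribonuclease MRP, which acts on ribosomal RNA precursors; both complexes share most of their proteins and are known from the nucleus and nucleolus. RN7SL3 is a gene of the signal recognition particle RNA, which directs secretory and membrane proteins to the endoplasmic reticulum. The vault RNAs belong to the vault particle of the cytoplasm.

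The 6 rows were single exons. RPPH1 lay at hg19 chromosome 14, 20811230 to 20811570, on the minus strand, and RMRP at chromosome 9, 35657748 to 35658015, on the minus strand. RN7SL3 lay at chromosome 14, 50320334 to 50320632, on the minus strand. The vault RNA genes lay in a row on the plus strand of chromosome 5, with VTRNA1-1 at 140090861 to 140090958, VTRNA1-2 at 140098511 to 140098598 and VTRNA1-3 at 140105744 to 140105831. Exonic lengths were 341 bases for RPPH1, 299 for RN7SL3, 268 for RMRP, 98 for VTRNA1-1 and 88 for each of VTRNA1-2 and VTRNA1-3. No other row overlapped an exon of a member. RPPH1 and RMRP each had a protein-coding gene that starts in the opposite direction, PARP2 at 202 bases and CCDC107 at 271 bases in the deposited annotation.

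The reference promoter table held none of the 10 members. The windows of both divergent neighbours, PARP2 and CCDC107, are shown because they cover most of the stretch before RPPH1 and RMRP, which are read in the opposite direction. The first 27 bases of the PARP2 window lie within RPPH1. The CCDC107 window does not reach RMRP and leaves out the 22 bases next to its start. They are RefSeq sequences of build GRCh38.p14, each of 300 bases that end shortly after the neighbour's start, written 5′ to 3′ on the plus strand. Capitals mark the octamer ATGCAAAT, the sequence bound by the transcription factor POU2F1, and TATAA, both searched on both strands, and the overlapping matches on the plus and minus strand in the PARP2 window give the run of 6 capitals there.

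PARP2, chr14:20343385-20343684: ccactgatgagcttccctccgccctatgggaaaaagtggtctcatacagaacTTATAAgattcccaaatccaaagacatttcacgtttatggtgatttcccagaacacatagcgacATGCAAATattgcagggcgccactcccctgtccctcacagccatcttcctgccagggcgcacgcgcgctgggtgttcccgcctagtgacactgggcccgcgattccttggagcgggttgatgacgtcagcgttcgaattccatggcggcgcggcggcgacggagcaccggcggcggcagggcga
CCDC107, chr9:35658042-35658341: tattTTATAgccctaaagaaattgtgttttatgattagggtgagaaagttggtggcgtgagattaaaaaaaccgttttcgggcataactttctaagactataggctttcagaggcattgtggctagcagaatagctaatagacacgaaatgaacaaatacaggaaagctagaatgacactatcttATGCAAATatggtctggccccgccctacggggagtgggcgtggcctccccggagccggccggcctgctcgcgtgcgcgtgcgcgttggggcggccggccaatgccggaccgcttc

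On the strand of the members, the nearest base of TATAA lay 26 bases before RPPH1 and 27 bases before RMRP. The octamer matched on the opposite strand, with its nearest base 90 bases before RPPH1 and 208 bases before RMRP. Of 35116 promoter windows of 300 bases, 1.77% held the octamer and 20.4% held TATAA on either strand. A match of letters is a description and not a site.

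Total counts per library ran from 2321291 to 8557777, and a count of 3 equals 0.351 to 1.29 CPM, the count scaled by the library's total. MALAT1, a nuclear RNA, had 10807 and 14330 CPM in nuclear and 816.7 and 794.1 CPM in cytosolic libraries. The PFA libraries stood apart from each other, with 549.9 CPM of MALAT1 in replicate 1 and 3606 CPM in replicate 2. LMNB1, the gene of the transfected fusion, took 8.60% of counts in native replicate 1 and 2.96% in native replicate 2. Its share was 8.89% and 9.49% in the PFA replicates, but 0.319% and 0.304% in the nuclear and 0.431% and 0.520% in the cytosolic replicates. Lamina and fraction libraries thus also differed in LMNB1, and the source of this difference was not tested. Of the line's markers, LIN28B had counts in every library, PAX2 reached at most 7.32 CPM, and HBB and PTPRC, genes of blood cells, had no count. Each library was scaled to its own total, and in bulk RNA fewer contributing cells and less RNA per cell cannot be told apart. Levels below are CPM after TMM scaling, a correction for differences in composition between libraries, and log2 fold changes come from the quasi-likelihood fit of edgeR over 16504 genes, with a call at a Benjamini-Hochberg adjusted p under 0.05.

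Together the 6 rows took 0.355% and 0.613% of counts in the nuclear libraries and 2.29% and 2.32% in the cytosolic libraries. Among the lamina libraries their share was 2.10% and 1.01% for the native and 2.24% and 1.79% for the PFA preparation. RPPH1 and RMRP supplied most of these counts. In the cytosolic libraries RPPH1 held rank 4 and RMRP rank 5 among all rows by count.

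**Figure D1:**
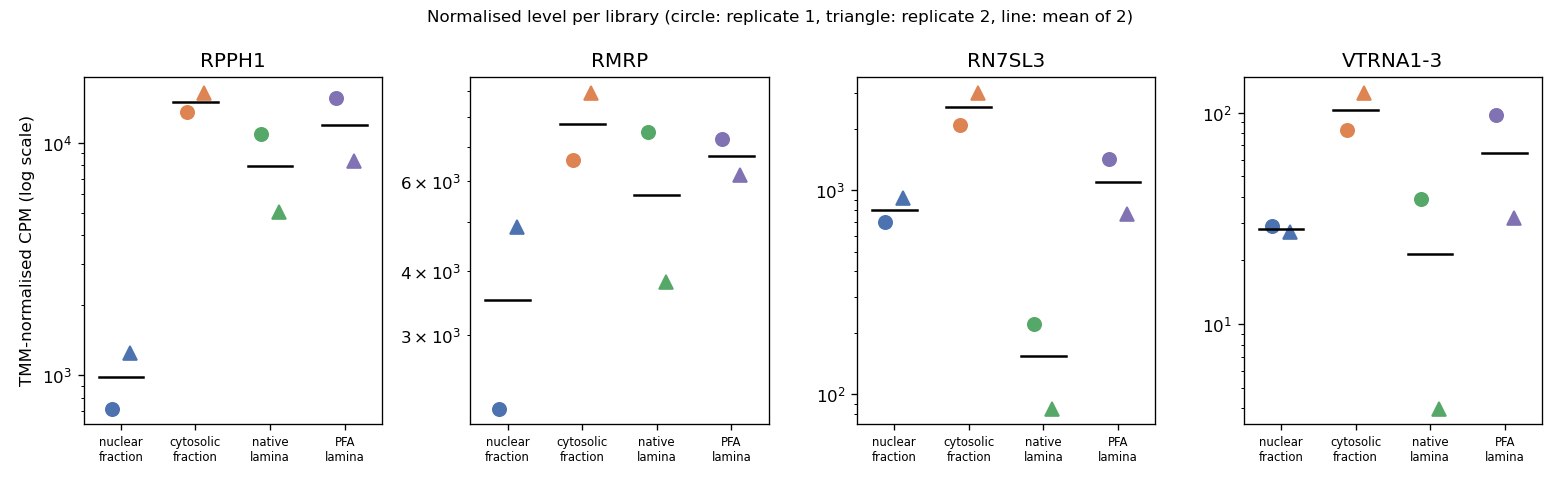
TMM-normalised CPM (log scale, with a separate range for each gene) of RPPH1, RMRP, RN7SL3 and VTRNA1-3 in each library, with circles for replicate 1, triangles for replicate 2 and lines for the mean of 2. RPPH1 lies lowest in both nuclear libraries, at 717.8 and 1244 CPM, while RN7SL3 lies lowest in both native lamina libraries, at 221.4 and 85.0 CPM.

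RPPH1 was lower in the nuclear fraction than in the other groups. Even so, it held rank 28 and rank 19 among all rows by count in nuclear replicates 1 and 2. It had 717.8 and 1244 normalised CPM in nuclear replicates 1 and 2, and 13498 and 16352 in cytosolic replicates 1 and 2. At the lamina it had 10910 and 5017 in the native replicates and 15485 and 8360 in the PFA replicates. Both nuclear libraries lay below all 6 others, and the ranges of the native and PFA lamina overlapped, as did those of the PFA lamina and the cytosolic fraction. How many other genes separate the libraries in such ways was not counted, for RPPH1 or for the members below. The separation is therefore a description and not a trait particular to a member.

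RPPH1 differed between the nuclear and the cytosolic fraction by a log2 fold change of -3.93 (SE 0.57), the second lowest of 16504 genes. Relative to the nuclear fraction it was higher by 3.02 (SE 0.55) at the native lamina, where 16 genes had a higher value, and by 3.60 (SE 0.56) at the PFA lamina, where 8 genes did. The nuclear to cytosolic value was a call in all 17 alternatives. The native lamina value was no longer called without nuclear replicate 1 (2.68), without nuclear replicate 2 (3.49) or without native replicate 1 (2.37), and the PFA value was no longer called without nuclear replicate 1 (3.26). RPPH1 had -0.91 (SE 0.51) for the native lamina against the cytosolic fraction and -0.32 (SE 0.51) for the PFA lamina, and neither was a call. These contrasts share control libraries, so the values stand side by side and do not count as separate support. ACTB had 1.48 and LIN28B 1.56 for native against nuclear, and 1.39 and 1.75 for PFA against nuclear, all calls. GAPDH (0.54 and 0.68) and EEF1A1 (0.41 and 0.34) were called in neither. The nuclear RNA NEAT1 had 98.3 and 872.8 CPM in the PFA replicates, without TMM scaling. NEAT1 had 842.9 and 1279 CPM in the native, 160.6 and 245.6 in the cytosolic and 1832 and 4419 in the nuclear replicates. MALAT1 had 6133 and 13868 CPM in the native replicates, also without TMM scaling. Its log2 fold change at the native lamina was -0.63 against the nuclear fraction, not a call, and 3.32 against the cytosolic fraction, a call. At the PFA lamina it was -2.90, a call, and 1.05, not a call, in the same order. Whether cytosolic RNA contributed to RPPH1 in the lamina libraries was not tested.

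RMRP followed the same order of group means with smaller differences. It had 2153 and 4885 normalised CPM in the nuclear replicates, 6615 and 8926 in the cytosolic replicates, 7472 and 3811 in the native replicates and 7263 and 6158 in the PFA replicates. The nuclear and cytosolic ranges did not overlap, whereas the native range overlapped both. RMRP had a log2 fold change of -1.14 (SE 0.49) between the nuclear and the cytosolic fraction, which was not a call. It was called in 7 of 17 alternatives, at -1.87 without nuclear replicate 2, -1.20 without PFA replicate 1, -1.16 without PFA replicate 2 and -1.14 by DESeq2, and it was -0.67 and no call without nuclear replicate 1. In the other 5 contrasts its log2 fold change ran from -0.46 to 0.93, and none was a call.

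The ratio of RPPH1 to RMRP within a library needs no scaling between libraries. It was 0.333 and 0.255 in the nuclear replicates, 2.04 and 1.83 in the cytosolic replicates, 1.46 and 1.32 in the native replicates and 2.13 and 1.36 in the PFA replicates. RMRP therefore had more counts than RPPH1 in both nuclear libraries and fewer in the 6 others. On the log2 scale the mean ratio was -1.78 ± 0.27 (SD, n = 2) for nuclear, 0.95 ± 0.11 for cytosolic, 0.47 ± 0.11 for native lamina and 0.77 ± 0.46 for PFA lamina libraries. The pattern was seen before the ratio was computed, so these values are a description and were not tested.

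**Figure D2:**
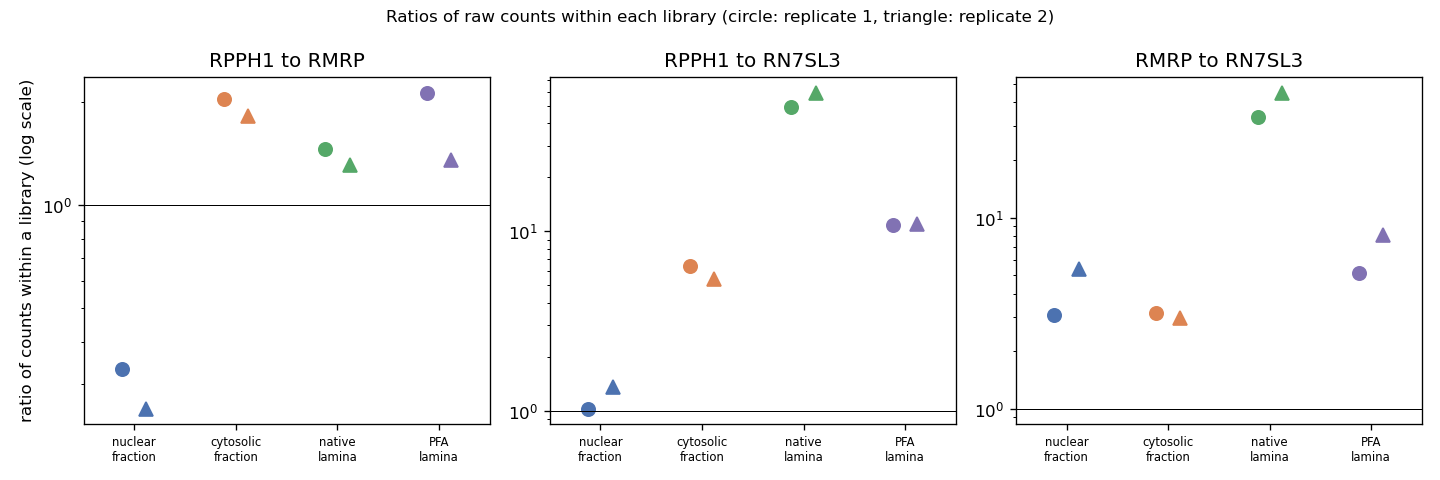
Ratio of raw counts of 2 members within each library (log scale), with circles for replicate 1, triangles for replicate 2 and a line at equal counts. The ratio of RPPH1 to RMRP lies below the line only in the nuclear libraries, and both ratios over RN7SL3 are highest in the native lamina libraries.

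RN7SL3 set the native lamina apart from the other groups. It had 696.1 and 913.0 normalised CPM in the nuclear replicates, 2101 and 3002 in the cytosolic replicates, 1424 and 762.2 in the PFA replicates, but 221.4 and 85.0 in the native replicates. Both native libraries lay below all 6 others, and how many other genes do so was not counted. Cytosolic and PFA ranges did not overlap, and PFA and nuclear ranges did.

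RN7SL3 had a log2 fold change of -4.06 (SE 0.51) between the native lamina and the cytosolic fraction, the lowest of 16504 genes, and the call held in all 17 alternatives. It was -2.39 (SE 0.48) against the nuclear fraction, a call lost without nuclear replicate 1 (-2.57), without nuclear replicate 2 (-2.17) or without native replicate 2 (-1.85). Between the nuclear and the cytosolic fraction it was -1.67 (SE 0.47), a call lost without nuclear replicate 1 (-1.49) or without cytosolic replicate 2 (-1.41). The PFA lamina had 0.44 (SE 0.45) against the nuclear and -1.22 (SE 0.46) against the cytosolic fraction, and neither was a call. The latter was called without PFA replicate 1 (-1.79).

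RN7SL3 had a log2 fold change of 2.83 (SE 0.49) for the PFA against the native lamina, with 12 genes above it, and it was not a call by edgeR. In that contrast 0 of 16504 genes were called, while 897 were higher and 924 lower at an unadjusted p under 0.05 and the Wald test of DESeq2 called 223. RN7SL3 was among those that DESeq2 called, and it was called by edgeR without PFA replicate 2 (3.22).

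The ratio of RPPH1 to RN7SL3 separated the 4 groups with no overlap between them. It was 1.03 and 1.36 in the nuclear replicates, 6.42 and 5.45 in the cytosolic replicates, 10.9 and 11.0 in the PFA replicates and 49.3 and 59.0 in the native replicates. The 2 PFA libraries, which differed in MALAT1, differed little in this ratio. RMRP to RN7SL3 was 3.09 and 5.35 in the nuclear, 3.15 and 2.97 in the cytosolic, 5.10 and 8.08 in the PFA and 33.7 and 44.8 in the native libraries. Both ratios join members selected on values of these libraries, so the separation is a description and was not tested. How many other pairs of genes separate the groups was not counted.

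The RN7SL3 count is uncertain as a measure of the particle RNA as a whole. The genes of this RNA and its many pseudogenes are nearly alike in sequence, and a read that fits several of them may be placed at any or counted at none. The count stands for reads placed at this row.

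VTRNA1-3 was the vault RNA with enough counts for a comparison. It had 187 and 159 counts in the nuclear replicates, 621 and 586 in the cytosolic replicates, 376 and 27 in the native replicates and 526 and 86 in the PFA replicates. In normalised CPM these were 29.1 and 27.3, 83.0 and 123.9, 39.1 and 3.98, and 97.2 and 31.6 in the same order. The cytosolic libraries lay above the nuclear ones, and the replicates of each lamina preparation lay far apart, replicate 1 above replicate 2.

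VTRNA1-3 had a log2 fold change of -1.87 (SE 0.70) between the nuclear and the cytosolic fraction. This call was lost with upper-quartile factors (-1.59), with at least 10 counts in every library (-1.66), by DESeq2 (-1.88) and without any 1 of the 4 fraction libraries, with values from -2.15 without cytosolic replicate 1 to -1.58 without cytosolic replicate 2 (-1.92 without nuclear replicate 1, -1.85 without nuclear replicate 2). Between the native lamina and the cytosolic fraction it had -2.24 (SE 0.71), which was not a call and moved to -4.70, a call, without native replicate 1 and to -1.41 without native replicate 2. It was called in 9 of 17 alternatives, which also include those without PFA replicate 1 (-2.27) and without PFA replicate 2 (-2.24). Against the nuclear fraction the native value of -0.37 turned to 0.49 without native replicate 2 and became a call at -2.80 without native replicate 1. The PFA lamina had 1.21 (SE 0.69) against the nuclear fraction, which was not a call, but was one at 1.80 without PFA replicate 2, and it was 0.18 without PFA replicate 1. LMNB1 took a smaller share of counts in native replicate 2 than in native replicate 1, as given above, and its part in the result was not tested.

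VTRNA1-1 and VTRNA1-2 were near or under the floor of 3 counts and did not pass the filter on low counts. VTRNA1-1 had 2 and 2 counts in the nuclear, 12 and 6 in the cytosolic, 4 and 0 in the native and 3 and 3 in the PFA replicates. VTRNA1-2 had 3 and 0, 4 and 1, 2 and 0, and 5 and 2 counts in the same order. Differences between groups were not detectable at this depth for either.

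**Figure D3:**
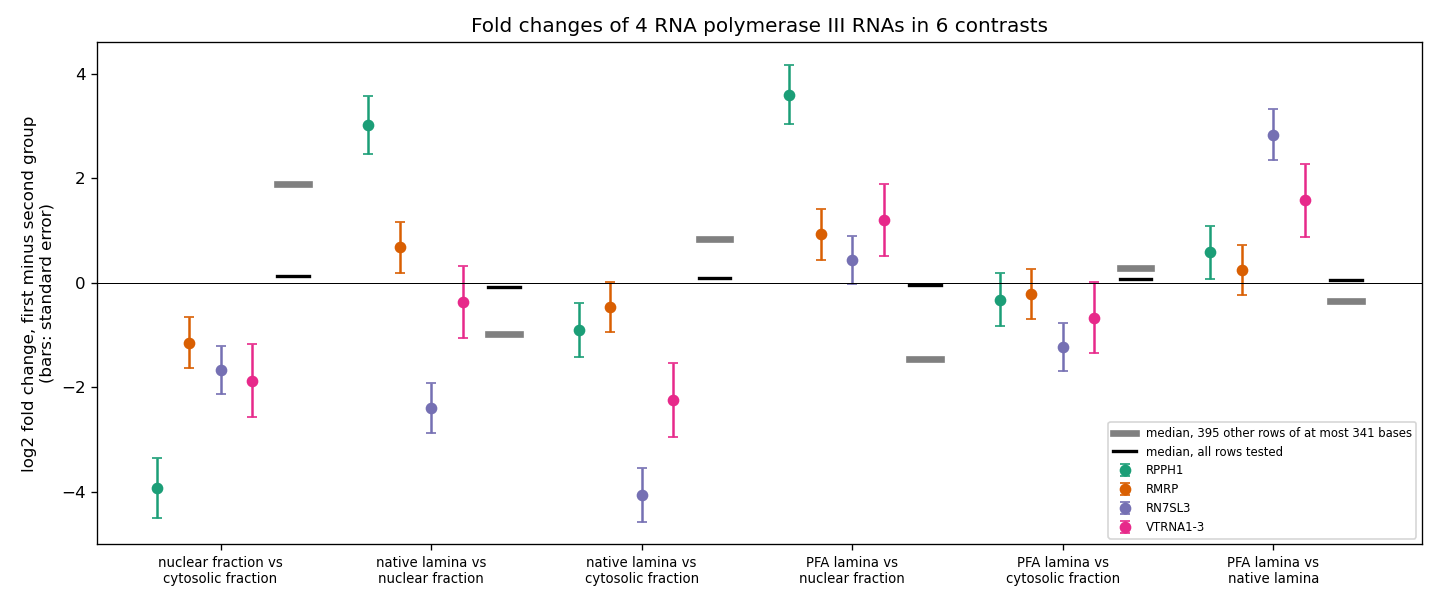
Log2 fold change (first minus second group, with its standard error) of the 4 tested members in 6 contrasts, beside the median of all rows tested and of 395 other rows of at most 341 bases. Between the fractions the 4 members lie below 0 while the median of the other short rows lies at 1.89.

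Over the members that passed the filter, 4 of the 6 rows, the nuclear against cytosolic contrast called 3 lower and 0 higher. Over all genes, 21.2% were called lower and 26.1% higher in that contrast. The members' median log2 fold change was -1.77, beside 0.13 over all genes tested. Other rows of at most 341 bases, a set defined after values were seen, had a median of 1.89 in that contrast, with 50.1% called higher and 5.32% called lower. These rows were taken by length only, and the kinds of RNA and the places of these rows within other genes were not examined.

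Against the nuclear fraction the native lamina had 1 member higher (RPPH1), 1 lower (RN7SL3) and 2 not called, where 3.87% of all genes were higher and 3.44% lower. Its median was 0.16 for the members, -0.07 for all genes and -0.98 for the other short rows. The PFA lamina had 1 member higher (RPPH1), 0 lower and 3 not called, where 9.63% of all genes were higher and 7.81% lower, with medians of 1.07, -0.04 and -1.45.

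Against the cytosolic fraction the native lamina had 0 members higher, 1 lower (RN7SL3) and 3 not called, where 6.99% of all genes were higher and 6.77% lower. The medians were -1.57 for the members, 0.10 for all genes and 0.84 for the other short rows. Against the same fraction the PFA lamina had 0 members called of 4 by edgeR, where 0.673% of all genes were called (0.527% higher and 0.145% lower), and 1 member, RN7SL3, had an unadjusted p under 0.05 and was called by DESeq2. Between the PFA and the native lamina 0 of 4 members were called by edgeR, where 0% of all genes were. In that contrast 2 members had an unadjusted p under 0.05, RN7SL3 and VTRNA1-3, and DESeq2 called 1.

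Levels of different members can be compared only per length. Per kilobase, normalised CPM in the cytosolic fraction was 43769 ± 5917 for RPPH1, 28994 ± 6099 for RMRP, 8533 ± 2130 for RN7SL3 and 1176 ± 329 for VTRNA1-3 (SD, n = 2). RMRP led the nuclear fraction with 13132 ± 7208 per kilobase, while RPPH1 with 2876 ± 1091 and RN7SL3 with 2691 ± 513 did not differ beyond their spread. At the native lamina RPPH1 and RMRP had 23354 ± 12220 and 21050 ± 9658 per kilobase, within their spread of each other, and RN7SL3 had 512.4 ± 322.5. At the PFA lamina the levels per kilobase were 34963 ± 14773 for RPPH1, 25038 ± 2916 for RMRP and 3656 ± 1565 for RN7SL3.

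Across the 8 libraries, which share groups and depth, log2 normalised CPM of RPPH1 and RMRP had a Pearson's r of 0.872, and RN7SL3 and VTRNA1-3 one of 0.885. RPPH1 and RN7SL3 had 0.238. Spearman's rho, taken on ranks, was 0.905 for RPPH1 with RMRP and also for RPPH1 with VTRNA1-3. It was 0.762 for RN7SL3 with VTRNA1-3 and 0.667 for RPPH1 with RN7SL3, so which members pair depended on the measure. The genes most like RPPH1 by Pearson's r among 12377 ranked were EPS8, TFDP1 and FOXK2, with r of 0.996, 0.995 and 0.994. Yet their group means spanned a much narrower range: FOXK2 averaged 108.6 normalised CPM in nuclear and 206.5 in cytosolic libraries. Those most like RMRP were CBS, its near copy CBSL and FAM229B, with r of 0.971, 0.966 and 0.965. Those most like RN7SL3 were MIR762HG, TAPT1-AS1 and C19orf70, with r of 0.986, 0.985 and 0.982, and TAPT1-AS1 had 51.3 normalised CPM in the cytosolic fraction and 8.89 at the native lamina. Those most like VTRNA1-3 were MRPS28, UQCC2 and WDR61, with r of 0.975, 0.974 and 0.971.

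The genes next to the members were measured in the same fit. PARP2, a DNA repair enzyme and the divergent neighbour of RPPH1, was lower in nuclear than cytosolic RNA, at -0.95 (log2, SE 0.34, edgeR adjusted p 0.0352), a call lost with upper-quartile factors, without nuclear replicate 1 or without cytosolic replicate 2. CCDC107, next to RMRP, had -0.35 (SE 0.48, edgeR adjusted p 0.569) in the same contrast. NEMF, a ribosome quality control factor whose gene starts 412 bases from RN7SL3 on the same strand, was higher in the nuclear fraction by 2.20 (SE 0.29, edgeR adjusted p 5.67e-04), a call kept in every alternative. At the PFA lamina NEMF had -1.61 against the nuclear fraction (edgeR adjusted p 0.00746), a call lost without nuclear replicate 1. At the native lamina NEMF had -1.19 against the nuclear (edgeR adjusted p 0.0276) and 1.01 against the cytosolic fraction (edgeR adjusted p 0.0323), and neither call held when any 1 library of the groups compared was left out.

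The messenger RNAs of the proteins that bind or make these RNAs were measured as polymerase II transcripts of the same pathway. Of 58 partner genes tested, which include 2 other polymerase III transcripts, 21 were lower and 3 higher in nuclear than cytosolic RNA. That is 41.4% called, beside 47.3% of all genes, of which 21.2% were lower and 26.1% higher. For the lists in the other contrasts, the shares of all genes are those given above beside the members. The count fell to 10 without nuclear replicate 1 and to 15 without nuclear replicate 2 or without cytosolic replicate 2.

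**Figure D4:**
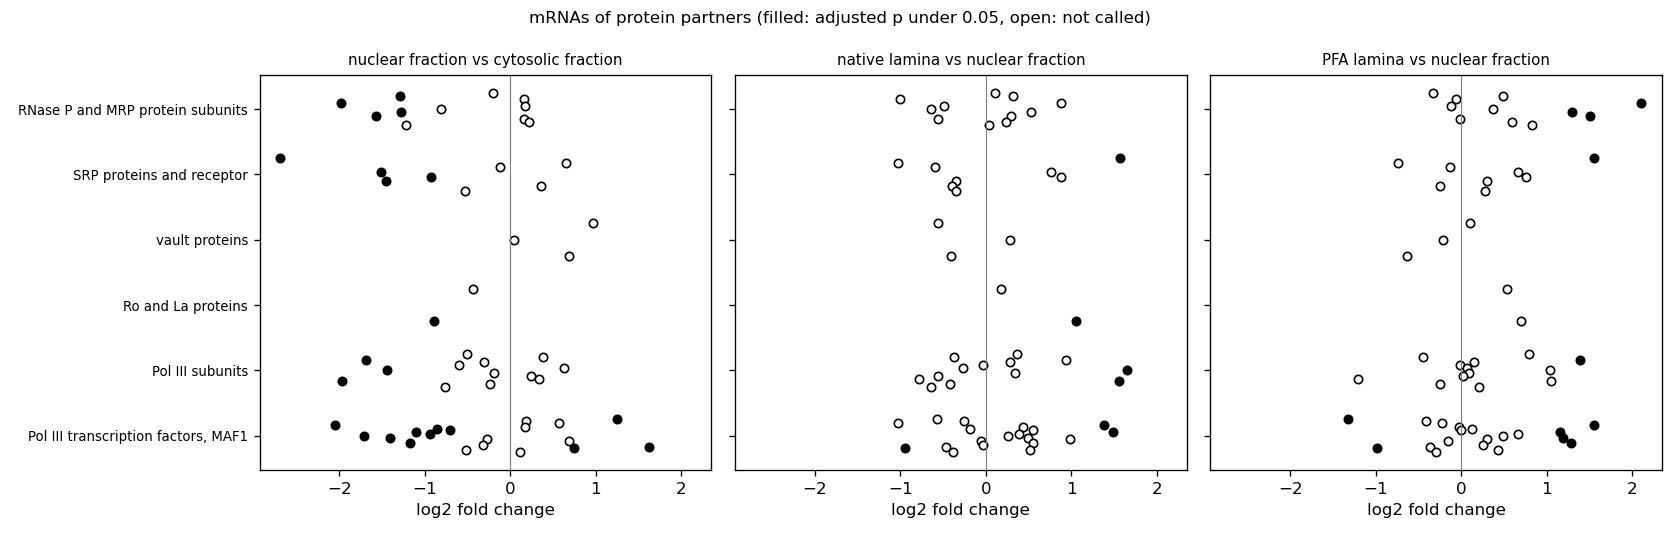
Log2 fold change of each partner messenger RNA in 3 contrasts, by list, with filled points for an adjusted p under 0.05 and open points for genes not called. In the nuclear against cytosolic contrast the filled points of the RNase P and MRP, signal recognition particle and polymerase subunit lists all lie below 0.

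Among the protein subunits of RNase P and RNase MRP, 4 of 11 were lower in the nuclear fraction and 0 were higher, with a median of -0.81. Over all genes 21.2% were lower and 26.1% higher. POP7, which binds the RNA as a pair with RPP25, had 10.5 ± 3.85 normalised CPM in nuclear and 41.4 ± 4.27 in cytosolic libraries (SD, n = 2), a log2 fold change of -1.98 (edgeR adjusted p 0.00143). RPP25 had -1.28 (edgeR adjusted p 0.00374), its paralog RPP25L -1.57 (edgeR adjusted p 0.00348) and POP4 -1.29 (edgeR adjusted p 0.0107). The call of POP4 was lost without nuclear replicate 1, without nuclear replicate 2 or without cytosolic replicate 1.

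At the PFA lamina 3 of these 11 were higher than in the nuclear fraction and 0 lower: POP7 by 2.11 (edgeR adjusted p 0.00723), RPP25L by 1.51 (edgeR adjusted p 0.0169) and RPP25 by 1.29 (edgeR adjusted p 0.0146). Without nuclear replicate 1 none of the 3 was called. At the native lamina 0 of 11 were called against the nuclear fraction by edgeR, with a median of 0.10 that turned to -0.05 with upper-quartile factors. Against the cytosolic fraction 3 of 11 were lower at the native lamina, RPP21 by a log2 fold change of -1.44, RPP25L by -1.28 and POP7 by -1.10 (edgeR adjusted p 0.0391, 0.0274 and 0.0485), and none of the 3 was called without cytosolic replicate 2 or with total counts in place of TMM.

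Of 8 signal recognition particle proteins and receptor subunits, 4 were lower in nuclear than cytosolic RNA and 0 were higher. The shares over all genes were 21.2% lower and 26.1% higher. SRP14, which with SRP9 binds the Alu domain of the particle RNA, had 18.5 ± 2.79 normalised CPM in nuclear and 119.4 ± 6.75 in cytosolic libraries (SD, n = 2) and a log2 fold change of -2.69 (edgeR adjusted p 9.88e-04). SRP68 had -1.52 (edgeR adjusted p 0.00313), SRP9 -1.46 (edgeR adjusted p 0.00539; no call without nuclear replicate 1) and SRP72 -0.93 (edgeR adjusted p 0.0250; no call with upper-quartile factors, without either nuclear library or without cytosolic replicate 2).

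Relative to the nuclear fraction SRP14 was higher by 1.57 at the native lamina (edgeR adjusted p 0.0473), and SRP9 had -1.80 there against the cytosolic fraction (edgeR adjusted p 0.00964). In each of these 2 contrasts the other 7 of the list were not called. The SRP14 call was lost without any 1 of the nuclear, cytosolic or native libraries, and the SRP9 call without cytosolic replicate 2 or native replicate 1. For the PFA lamina SRP14 was likewise higher than nuclear by 1.56 (edgeR adjusted p 0.0305), a call lost without PFA replicate 1 or without either nuclear library.

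None of the 3 vault protein genes was called in any of the 6 contrasts by edgeR. MVP, the major vault protein, had a log2 fold change of 0.97 (edgeR adjusted p 0.116) in the nuclear against the cytosolic fraction, while VTRNA1-3 had the negative value given above. TROVE2, the Ro protein that binds Y RNAs, was lower in nuclear than cytosolic RNA, at -0.90 (edgeR adjusted p 0.0198), and at the native lamina higher than nuclear by 1.05 (edgeR adjusted p 0.0430), and both calls were lost with upper-quartile factors or without any 1 of the 4 fraction libraries. SSB, the La protein that binds the 3′ ends of new polymerase III transcripts, had -0.43 (edgeR adjusted p 0.414) between the fractions and was called in none of the 6 contrasts.

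The 13 polymerase III subunit genes included POLR1C and POLR1D, which are shared with polymerase I. Beside 21.2% lower and 26.1% higher over all genes, 3 of the 13 were lower in the nuclear fraction and 0 higher. These were POLR3GL with a log2 fold change of -1.97 (edgeR adjusted p 0.00248), POLR1D with -1.69 (edgeR adjusted p 0.00148) and POLR3D with -1.45 (edgeR adjusted p 0.00701; no call without nuclear replicate 1 or cytosolic replicate 2). Relative to the nuclear fraction POLR3D and POLR3GL were higher at the native lamina by 1.65 and 1.56 (edgeR adjusted p 0.0252 and 0.0391), and POLR1D at the PFA lamina by 1.39 (edgeR adjusted p 0.0141), and none of these 3 calls held without either nuclear library. POLR3K was lower at the native lamina against the cytosolic fraction, at -1.40 (edgeR adjusted p 0.0210; no call without either cytosolic library or native replicate 2).

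Transcription factors of polymerase III went both ways. Of 19 genes with the repressor MAF1, 8 were lower and 3 higher in nuclear than cytosolic RNA, beside 21.2% and 26.1% of all genes. GTF3A, which binds the gene of the smallest ribosomal RNA, had -2.05 (edgeR adjusted p 0.00129), GTF3C6 -1.72 (edgeR adjusted p 0.00913; no call without either nuclear library or cytosolic replicate 1) and MAF1 -1.41 (edgeR adjusted p 0.00401; no call without nuclear replicate 1). SNAPC4, a subunit of the complex that reads the upstream promoter element of genes such as RPPH1, was higher by 1.62 (edgeR adjusted p 0.00270).

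Against the nuclear fraction the native lamina had 2 of the 19 higher and 1 lower, and the PFA lamina 4 higher and 2 lower. GTF3C4 was higher by 1.49 at the native lamina (edgeR adjusted p 0.0142), and GTF3A by 1.39 and 1.55 at the native and PFA lamina (edgeR adjusted p 0.0390 and 0.0167). SNAPC5 was lower at the native lamina, with -0.94 (edgeR adjusted p 0.0477; no call with total counts). BDP1 was lower at the PFA lamina, with -1.32 (edgeR adjusted p 0.0128), and SNAPC2 was higher there by 1.29 (edgeR adjusted p 0.0426; no call by DESeq2). None of these calls held without nuclear replicate 1 or without nuclear replicate 2. MAF1 was higher at the PFA lamina by 1.19 (edgeR adjusted p 0.0272), a call lost without nuclear replicate 1 or PFA replicate 1. Against the cytosolic fraction the native lamina had SNAPC4 higher by 1.15 and GTF3C6 and GTF3C2 lower, with -1.45 and -1.04 (edgeR adjusted p 0.0397, 0.0482 and 0.0366), and none of the 3 was called without either cytosolic library.

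Over all 58 partner genes, the native lamina against the nuclear fraction called 12.1%, beside 7.31% of all genes, and against the cytosolic fraction 13.8%, beside 13.8%. The PFA lamina called 19.0% against the nuclear fraction, beside 17.4%. Calls against the nuclear fraction fell from 7 to 0 for the native lamina without either nuclear library or without native replicate 2, and from 11 to 0 for the PFA lamina without nuclear replicate 1. Against the cytosolic fraction the 8 native lamina calls fell to 0 without cytosolic replicate 2 and reached 16 without PFA replicate 1. The PFA lamina against the cytosolic fraction called 0 partner genes by edgeR, with 11 at an unadjusted p under 0.05, 2 by DESeq2 and 10 by edgeR without PFA replicate 1. PFA against native lamina called 0 by edgeR, with 9 at an unadjusted p under 0.05 and 0 by DESeq2.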

How the data were processed

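Read counts per gene symbol of 8 HEK293FT RNA libraries were used, as deposited by the authors. Per the file headers they were made with featureCounts 1.5.2 on hg19 RefFlat genes, ignoring strand and counting a read for each gene it overlapped. TopHat2 2.1.1 and Bowtie2 2.3.2 are named in the submitters' processing notes. One header, that of cytosolic replicate 1, names its own alignment as input but a nuclear file as output, and the library was kept as labelled. The deposited HCT116 domain lists give starts and ends in bases without a score. The members and lists were chosen with earlier results of these data known.

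Genes were filtered with filterByExpr (16504 of 27630 kept) and tested with edgeR 4.0.16 under R 4.3.3, TMM scaling and quasi-likelihood tests of 6 contrasts in a joint model of the 4 groups, adjusted by Benjamini-Hochberg, with a call under 0.05. The code was run on simulated counts with known changes between nuclear and cytosolic libraries and the same dispersion for every gene. That run checks the code and does not measure error rates for these libraries. Called partner genes were named, at most 4 per list and contrast by size of change, and the 3 genes most like each member. Alternatives were other scalings, DESeq2 1.42.0, other filters, fits of 4 libraries, a replicate block and leaving out each library. Shares are of total counts, 2321291 to 8557777 per library, and floors of 3 counts cover counting error only. The RN7SL2 to RN7SL1 ratio could not be computed without those rows. The symbol pattern for transfer RNAs also caught TRNAU1AP, a protein gene, which was left out.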

Additional observations from a re-analysis of the deposited data

How the results depend on the processing

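The 7 called fold changes of members kept their sign in every alternative. Upper-quartile factors, total counts and the other scalings moved the median of all genes by -0.16 to 0.29, most with total counts at the native lamina, and under these no member median changed sign. Of all genes called, 55.2% were higher for nuclear against cytosolic (67.6% with upper-quartile factors), 52.9% for native against nuclear (87.5% with total counts, 38.7% with upper-quartile factors), 50.8% for native against cytosolic (73.9% with total counts) and 55.2% for PFA against nuclear (78.7% and 42.3%). Counts of called members, over leaving out 1 library each, ran from 1 to 4 for nuclear against cytosolic, 0 to 2 for native against nuclear, 1 to 2 for native against cytosolic, 0 to 2 for PFA against nuclear, 0 to 1 for PFA against cytosolic and 0 to 1 for PFA against native. Counts of partner genes ran from 10 to 27, 0 to 12, 0 to 16, 0 to 19, 0 to 10 and 0 to 1 in the same order. The cause of these shifts was not tested.

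For native against cytosolic 2 members, RN7SL3 and VTRNA1-3, were called with DESeq2 size factors, with library sizes without the largest rows, without a filter, with at least 10 counts in every library and in fits of 4 libraries. Without a filter 2 members were called for PFA against nuclear, 1 for PFA against cytosolic and 2 for PFA against native, and with the Wald test of DESeq2 1 in each of the last 2. Partner genes called for native against nuclear were 11 with total counts, 4 with upper-quartile factors and 12 in fits of 4 libraries. For native against cytosolic they were 5, 5 and 13 in the same order, and for PFA against nuclear 2 in fits of 4 libraries. For PFA against cytosolic they were 4 without a filter and 2 with DESeq2, and 1 without a filter in the last contrast.

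The labels do not say whether replicate numbers pair the libraries. Deviations of same-numbered libraries correlated at -0.088 to 0.300 over the 6 pairs of groups. The highest values were 0.300 for PFA and native lamina and 0.257 for the nuclear and cytosolic fractions. These values do not settle whether the libraries were paired. With the replicate block the members called were 3, 2, 2, 1, 0 and 0, and the partner genes 25, 8, 9, 13, 0 and 0, in the order above. The block added the call of VTRNA1-3 for native against cytosolic, at -2.70.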

Other observations

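Other polymerase III transcripts in the tables were mostly without signal. Of 34 such rows, 27 had no count in any library, and 28 were SNAR genes, a family that includes similar copies. SNAR-G1 reached 6 counts in a library and SNAR-E 2. Whether reads that fit several copies went uncounted was not tested. Of the 34 rows 2 were tested. RNU6ATAC, an RNA of the minor spliceosome, had 11 and 13 counts in the nuclear, 93 and 35 in the cytosolic, 45 and 5 in the native and 73 and 3 in the PFA replicates. Its log2 fold change between the nuclear and the cytosolic fraction was -2.33 (SE 0.90, edgeR adjusted p 0.0468), a call lost with upper-quartile factors or without any 1 of the 4 fraction libraries. RNU6-2, a gene of the major spliceosome's U6 RNA, had 40 and 31 counts in the nuclear, 48 and 43 in the cytosolic, 30 and 11 in the native and 38 and 3 in the PFA replicates, and it was called in none of the 6 contrasts. Its row is uncertain, since its exonic length of 1171 bases far exceeds that RNA. The rows of RNY4 and RNY5, with exonic lengths of only 34 and 46 bases, had no count, which does not show that these RNAs were absent.

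The lamina domains of HCT116, a colorectal carcinoma line other than the one used for RNA, contained none of the 6 member genes in G1, S or G2. Of all rows on 1 chromosome, 6.73% lay wholly inside a domain in G1, 5.92% in S and 8.26% in G2. RPPH1 was the member nearest to a domain, 211 kb away in G1, 611 kb in S and 111 kb in G2, while the vault RNA gene nearest to one, VTRNA1-1, was 3191 kb away in each stage.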
